A study of Homo sapiens with 4 samples.

Results

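Genes for the enzymes that attach ubiquitin to proteins and remove it were examined in a map of the RNA contacts of SMD2. The members were chosen by gene symbol: protein-coding genes named USP, UBE1 to UBE4, UBA1 to UBA7, UBR, CUL, FBX, RNF, HERC, HECTD, HUWE1, TRIM, KLHL, OTUD or BIRC, followed by a digit where the family name has one, with a peak outside the intergenic class. This gave 243 of the 9401 peaks in the deposited list, assigned to 149 genes. Beyond the presence of a peak, no peak height or other measured value entered the rule, which was chosen with earlier results of these data known.

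SMD2 was immunoprecipitated in 3 libraries and a further library is the input. All 4 were made from HEK293T, an established line from human embryonic kidney that carries the SV40 large T antigen. PAR-CLIP feeds cells 4-thiouridine, links it by ultraviolet light to the proteins that touch it, and sequences the short RNA pulled down with 1 protein. The labels give the same feeding (200 uM over 14 h) and wavelength (365 nm) for every library. For the 3 immunoprecipitated libraries they also give RNase T1 (10 U/ul, 8 min, 22 C), antibody (4 h) and beads (3 h). None of these is listed for the input. The immunoprecipitation used an anti-FLAG antibody, and the labels used here give neither the tagged construct nor whether the 3 libraries came from separate cultures. The deposited list is 1 list of positions for the immunoprecipitation, with no height, p-value, strand or value per library. The spread between libraries and the depth are therefore unknown, the input could not be compared, and no test was made. Intervals below are Wilson 95% intervals and cover counting error only.

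SMD2, the product of SNRPD2, is a subunit of the Sm ring that wraps the spliceosomal small nuclear RNAs, so contacts with introns of nascent transcripts are part of its known surroundings. Ubiquitin is passed along a cascade: an E1 enzyme activates it, an E2 enzyme carries it, and an E3 ligase picks the substrate. Ligases with a HECT domain take ubiquitin onto their own cysteine, while RING ligases, among them the multisubunit cullin ligases, bring a loaded E2 to the substrate. Deubiquitinases cut ubiquitin off again. E1 genes are few, E2 genes more numerous, and genes for ligases and substrate receptors the most numerous.

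A sequence could be read for 1 family peak, because it reached into a promoter window of the RefSeq tables, and it is shown for that reason and because the peak also covers part of a tRNA gene. FBXO31 codes for an F-box protein, a substrate receptor of a CUL1 ligase. Its only peak, 66 nt wide at chr16:87384010-87384075 (hg38), carried the label Promoter. The peak lay 8.05 kb from the outermost start of the gene and reached into the window of a RefSeq start of FBXO31 further inside. Of its bases, 54 lay on the tRNA gene TRM-CAT6-1 (chr16:87384022-87384094), which is 73 nt long. The RefSeq window (GRCh38.p14, minus strand, chr16:87383727-87384026) holds 17 bases of the peak, in capitals at its 5′ end.
FBXO31 promoter window: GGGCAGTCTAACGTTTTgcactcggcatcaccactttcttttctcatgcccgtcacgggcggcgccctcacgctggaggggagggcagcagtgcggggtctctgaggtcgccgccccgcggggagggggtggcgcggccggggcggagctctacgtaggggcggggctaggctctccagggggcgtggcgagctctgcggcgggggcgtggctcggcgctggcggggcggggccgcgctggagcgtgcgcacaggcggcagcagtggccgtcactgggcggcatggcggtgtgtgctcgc
The motifs searched were TTTTT, then ATTTTTG, which contains it, and GTAAG. None was found in this window on either strand. Of 35116 promoter windows in the table, 39.2% held TTTTT, 4.12% ATTTTTG and 23.5% GTAAG, again on either strand. Whether the RNA came from FBXO31 or from the tRNA gene was not tested.

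The first question was how many genes of the family held a peak. The RefSeq table has 426 protein-coding genes of these names, of which 149 held at least 1 peak, or 34.98% (30.6 to 39.6%). Over all 20050 protein-coding genes the share was 21.6%, and over the 19624 genes outside the family it was 21.3% (20.7 to 21.8%). At least 2 peaks were held by 54 family genes, 12.7% (9.85 to 16.2%), against 7.31% of all protein-coding genes. The peak list holds no RNA levels, so RNA abundance in HEK293T and contact with SMD2 cannot be told apart.

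Part of this difference went with gene length. Family genes had a median span of 34.7 kb, against 24.0 kb for other protein-coding genes, and longer genes hold more peaks in this list. All protein-coding genes were divided into 10 groups of equal size by span. At the shares of other genes in the same span group, 98.8 family genes would hold a peak, so the 149 found were 1.51 times that number. For at least 2 peaks the same ratio was 1.54. The family share lay above that of other genes in 9 of 10 span groups, but its interval excluded their share only in the seventh, eighth and ninth. In the seventh the family share was 43.5% (30.2 to 57.7%) against 28.1%, and in the eighth 44.8% (32.8 to 57.6%) against 29.8%. In the tenth, which holds the longest genes, it was 55.6% (39.6 to 70.5%) against 42.9%. In the ninth, from 83.5 to 152 kb, 42 of 69 family genes held a peak (60.9%, 49.1 to 71.5%), against 36.4% of other genes. In the first, up to 3.05 kb, 0 of 41 did, against 3.16% of other genes. The Wilson interval of that 0 reaches 8.57%, and 3 genes of the 41, the limit that a count of 0 allows, are 7.32%. The USP17L genes, 25 near-identical intronless copies of a deubiquitinase gene, were all in that shortest group. Reads from copies so alike may not be separable, which was not tested.

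**Figure D1:**
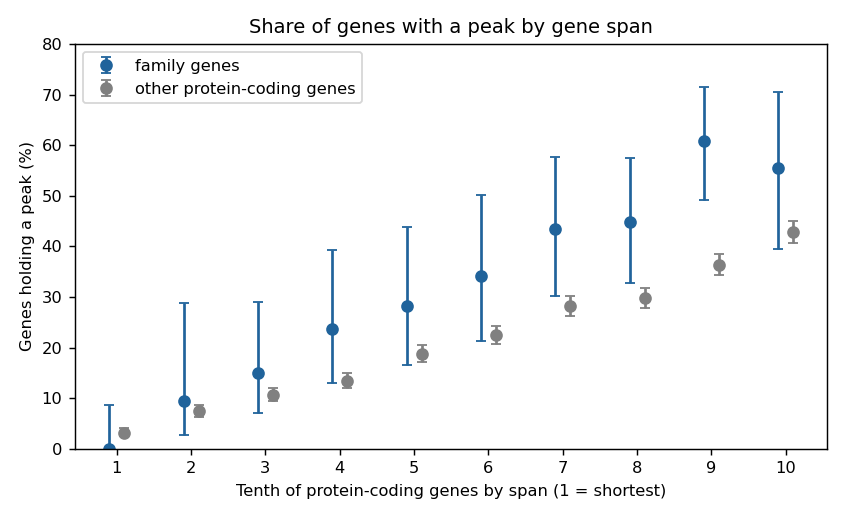
Share of genes holding at least 1 SMD2 peak (vertical axis, %) in 10 groups of protein-coding genes by span (horizontal axis, 1 = shortest), for family genes in blue and other protein-coding genes in grey, with Wilson 95% intervals as bars. Family shares run from 0 to 60.9%, and lie above the grey points in 9 of 10 groups. The blue interval leaves out the grey point only in groups 7, 8 and 9.

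Role groups differed in how many of their genes held a peak. Among groups with 5 or more genes, cullins, HECT ligases, UBR proteins, BIRC proteins and E2 enzymes had the highest shares. TRIM and KLHL proteins stood near the 21.6% of all protein-coding genes. The intervals of cullins, HECT ligases, UBR proteins and E2 enzymes began above 29.7%, the upper end of the interval for TRIM proteins, while most other intervals overlapped. These groups differ in span. Other genes of the same span groups would give 36.3% for HECT ligases, 36.7% for UBR proteins and 19.2% for TRIM proteins. The UBR interval, 30.0 to 90.3%, includes its share from span. The intervals of cullins, HECT ligases, E2 enzymes, USP deubiquitinases and BIRC proteins lie above theirs, that of the 5 BIRC genes only narrowly. These differences between groups were not tested.

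**Figure D2:**
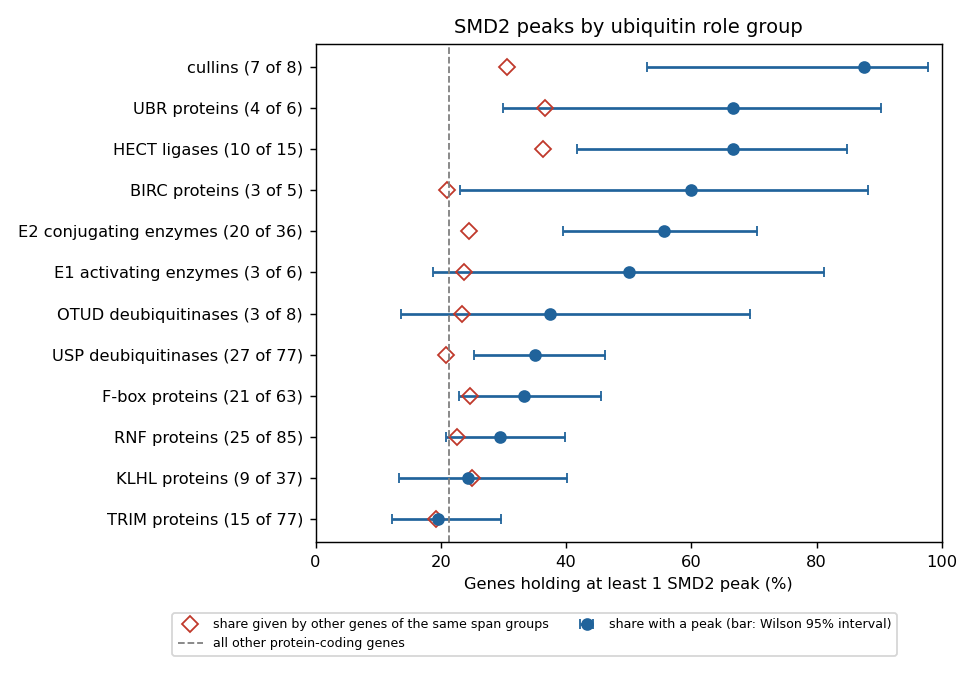
Share of genes holding at least 1 SMD2 peak (horizontal axis, %) in the role groups with 5 or more genes, with Wilson 95% intervals as bars. Open diamonds mark the share that other genes of the same span groups would give, and the dashed line the 21.3% of all other protein-coding genes. Cullins are highest with 7 of 8 genes and TRIM proteins lowest with 15 of 77.

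E1 enzymes start the cascade. Of 6 genes, 3 held a peak, each with 1. UBA1 codes for the main ubiquitin E1, and its peak carried the label Promoter and lay 1.49 kb downstream of the RefSeq start of the gene. UBA6, a further ubiquitin E1, and UBA2, a subunit of the E1 for SUMO, held 1 intronic peak each. UBA3 and UBA7, which serve NEDD8 and ISG15, held none.

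E2 enzymes held peaks in 20 of 36 genes, or 55.6% (39.6 to 70.5%), 2.27 times the 8.81 genes that their spans would give. The UBE2E genes, a small family of closely related E2 enzymes, all held several. UBE2E1 had 6 peaks, 5 of them intronic, all past the middle of the gene, between 44.3 and 79.9 kb from its start in a span of 85.7 kb. UBE2E2 had 4, all intronic, over 295 kb of its 389 kb. UBE2E3 had 3, all intronic. Neighbouring peaks touched end to end in both UBE2E1 and UBE2E3: the UBE2E1 peaks chr3:23885858-23885880 and chr3:23885881-23885905, and the UBE2E3 peaks chr2:180997650-180997695 and chr2:180997696-180997701. With peaks of a gene within 50 nt merged, UBE2E1 had 5 and UBE2E3 had 2.

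Other E2 genes with 3 peaks were UBE2D3, UBE2G1 and UBE2W. UBE2D3, an E2 that works with many ligases, had an intronic, an exonic and a Promoter peak within 11.7 kb, all over 55 kb from its start in a span of 74.5 kb, and 5 pseudogenes carry its name. UBE2G1 had 2 intronic peaks and 1 in its 3' UTR. UBE2W, which attaches ubiquitin to amino termini, had all 3 in its 3' UTR within 4.02 kb. UBE2L3, UBE2N and UBE2R2 held 2 intronic peaks each. The other 11 E2 genes with a peak held 1 each. Among them, UBE2C, an E2 of the anaphase-promoting complex, spans only 4.31 kb and had the highest density of the family, 23.2 peaks per 100 kb, from that 1 peak of 52 nt. As for UBE2D3, 5 pseudogenes carry the name of UBE2C. The peak assigned to UBE2A lay outside the RefSeq span of the gene.

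HECT ligases held peaks in 10 of 15 genes, 66.7% (41.7 to 84.8%), against 5.44 genes from their spans. They are long, with a median span of 130 kb. HUWE1, a very large ligase with many substrates, had 5 peaks, 3 intronic and 2 exonic, spread over 109 kb of a 155 kb gene. HECTD4 had 3 intronic peaks. UBE3C and UBE3D had 2 intronic peaks each. HERC2, which acts in DNA damage signalling, had 2 exonic entries that touch, 1 of them a single base, so they count as 1 when merged. RefSeq names 11 pseudogenes for HERC2, and reads from these copies may not be separable from it. HERC1, HERC4, HERC5 and UBE3A held 1 intronic peak each. The UBE3A peak also lay within SNHG14, the long noncoding RNA over the same locus.

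Of 6 UBR genes, which include the ligases that read destabilising amino termini, 4 held a peak. UBR4 had 3, of which 2 were exonic and lay 1317 nt apart, and UBR1 and UBR7 had 1 each. The group of U-box ligases that lengthen ubiquitin chains had 1 intronic peak, in UBE4B, and none in UBE4A.

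Cullins, the scaffolds of the largest class of ligases, held peaks in 7 of 8 genes, 87.5% (52.9 to 97.8%), where their spans would give 2.45. CUL1, the scaffold of the SCF ligases, had 3 peaks at 71.5, 94.9 and 100.9 kb of a 103 kb gene, the last of them exonic. Those at 94.9 and 100.9 kb were only 6 and 8 nt wide, against a family median of 25 nt. CUL5, which pairs with SOCS-box receptors, had 2 intronic peaks and 1 in its 3' UTR. CUL2 had 1 peak in the 3' UTR, 329 nt from the end of the gene. CUL3 and CUL7 held 1 exonic peak each and CUL4A and CUL4B 1 intronic peak each. CUL9 held none.

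The substrate receptors of cullin ligases showed smaller shares. F-box proteins, which serve CUL1, held peaks in 21 of 63 genes, 33.3% (23.0 to 45.6%), 1.35 times the number from their spans. FBXO21 had 3, in an exon, an intron and the 3' UTR. FBXL13, FBXL20 and FBXL4 had 2 each. KLHL proteins, which serve CUL3, held peaks in 9 of 37 genes, 24.3% (13.4 to 40.1%), 0.976 times the number from their spans. KLHL11 had 3 peaks within 893 nt at chr17:41850735-41851627, with the labels 3' UTR, Promoter and Promoter. It spans 16.9 kb, and a gene of that span group outside the family held 0.240 peaks on average. KLHL12, KLHL13 and KLHL18 had 1 each.

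RNF and TRIM genes, most of which code for single-chain RING proteins, were among the largest groups. RNF genes held peaks in 25 of 85 cases, 29.4% (20.8 to 39.8%), 1.30 times the number from their spans. RNF138, a ligase of DNA double-strand break repair, had 4 in a span of 39.7 kb, 3 of them intronic and 1 in the 3' UTR. RNF111, RNF115 and RNF121 had 2 intronic peaks each. TRIM genes held peaks in 15 of 77 cases, 19.5% (12.2 to 29.7%), which is 1.01 times the number from their spans. Within that group TRIM33 stood out by count. It codes for a ligase and corepressor of TGF-beta signalling and had 6 peaks, all intronic, between 50.3 and 111 kb of a 118 kb gene. That is 9.07 times the mean of 0.662 peaks for genes of its span group, a ratio that follows in part from its choice by count. Among 4259 other coding genes with a peak, 46 held 6 or more, up to 11. TRIM24, a close relative of TRIM33, had 2 intronic peaks, and TRIM4 and TRIM8 had 2 each. The peak assigned to TRIM59 lay outside its RefSeq span, inside both SMC4 and the read-through gene TRIM59-IFT80.

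BIRC proteins, the inhibitors of apoptosis, held peaks in 3 of 5 genes. BIRC6, a giant protein that joins E2 and E3 activity, had 3 peaks, 2 of them exonic. BIRC2 had 2 intronic peaks. BIRC5, which codes for survivin, had 1 exonic peak of 70 nt, with USP9X the widest of the family. Survivin acts in chromosome segregation and is named here for its gene family.

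Deubiquitinases remove ubiquitin and act against the ligases. Of 77 USP genes 27 held a peak, 35.1% (25.4 to 46.2%), 1.68 times the number from their spans. Without the USP17L copies, none of which held a peak and whose reads may not be separable, the share was 51.9% (38.7 to 64.9%). Among the 27, USP6NL codes for a GTPase-activating protein and shares only the name. USP14, the deubiquitinase that docks on the proteasome, had 5 peaks in 56.1 kb, 3 of them intronic and close together at chr18:205279-205436. USP9X, a large X-linked deubiquitinase, had 5, of which a Promoter peak was 70 nt wide and 4 were intronic. USP10, USP16 and USP24 had 4 each. All 4 were intronic in USP10 and in USP24. USP16, which takes ubiquitin off histone H2A, had 3 intronic peaks and 1 exonic peak in 29.8 kb. That is 12.9 times the mean of genes in its span group, the highest ratio among family genes with 3 or more peaks. USP47 had 3 intronic peaks and USP19 had 2 exonic peaks, 517 nt apart. Of 8 OTUD genes 3 held a peak. OTUD7B had 3 and OTUD3 and OTUD5 1 each, in their 3' UTRs.

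Most family genes with a peak had a single one. Of 149 genes, 95 had 1 peak, 31 had 2, 13 had 3, 5 had 4, 3 had 5 and 2 had 6. Genes with 2 or more made up 36.2% (29.0 to 44.2%), against 33.7% (32.3 to 35.1%) of the 4259 other protein-coding genes with a peak. Per 100 kb of span, family genes with a peak had a median of 2.35 peaks and other such genes 2.53. The 23 genes with 3 or more peaks held 86 peaks, 35.4% of the family total, and 61 of the 86 were intronic. Their counts were 3.66 to 12.9 times the mean of genes of like span, values that follow in part from choosing genes with many peaks.

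**Figure D3:**
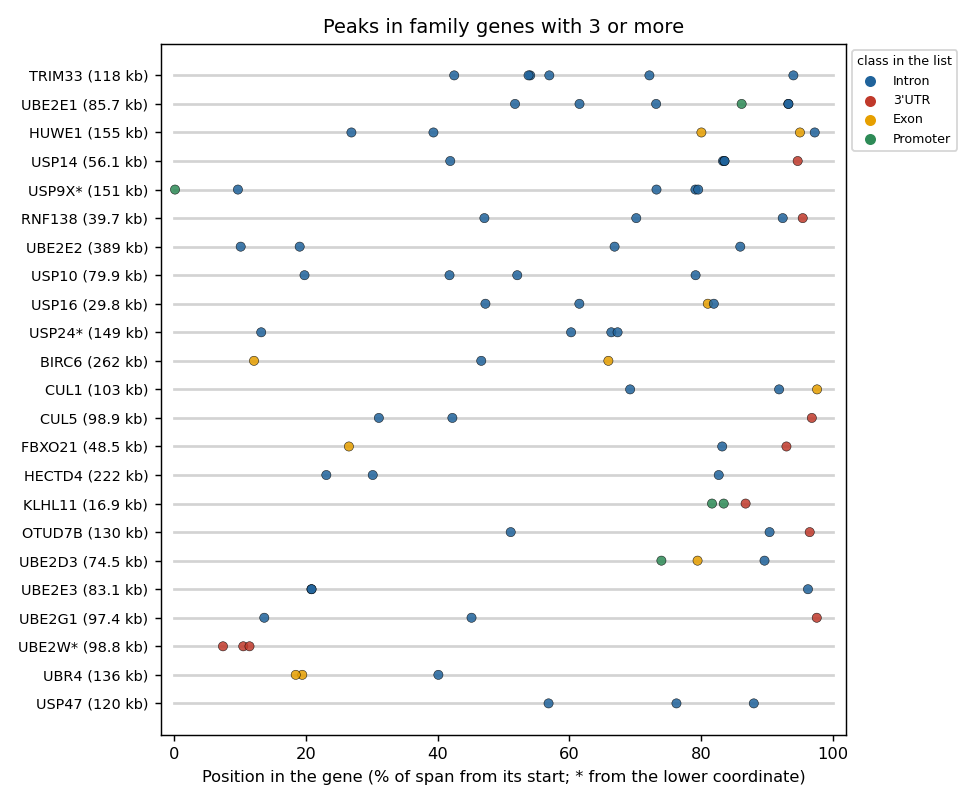
Peaks in the 23 family genes with 3 or more, as points along each gene (horizontal axis, % of the RefSeq span from the start of the gene), coloured by the class in the deposited list. For 3 genes marked by an asterisk the strand was not at hand and the position is counted from the lower coordinate. Most points are intronic, and those of UBE2E1, CUL1, KLHL11, UBE2D3, USP47 and OTUD7B all lie past the middle of the gene.

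The classes of the family peaks were close to those of other coding genes. Of 243 peaks, 156 were intronic, 64.2% (58.0 to 70.0%), against 61.6% of 6643 peaks of other protein-coding genes. The 3' UTR share was 15.6% against 14.8%, the exon share 10.3% against 10.2% and the Promoter share 7.41% against 8.75%. Termination sites held 1.65% (0.642 to 4.16%) against 3.87%, and 5' UTRs 0.823% against 0.828%. Role groups differed more among themselves. USP peaks were intronic in 42 of 53 cases and HECT peaks in 15 of 19, while KLHL peaks were intronic in 4 of 11 and carried the label Promoter in 5. Of those 5 Promoter peaks, 2 were in KLHL11, and that of KLHL35 lay outside the RefSeq span of its gene. At the level of genes, 75 of 149 held intronic peaks alone, 21 both kinds and 53 no intronic peak. Of 4259 other coding genes with a peak the numbers were 2148, 654 and 1457, a like division.

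Class labels and the ends of the RefSeq gene did not always match. Of 18 Promoter peaks, the distance to the outermost RefSeq start of the gene could be given for 15. It was over 10 kb for 11 of them, and within 1000 nt for 1, in FBXO45. The Promoter peaks of USP5, USP2 and TRIM25 lay 45, 483 and 641 nt from the 3′ end of the gene. The peak of RNF157 with that label lay on a pseudogene, ATF4P3. The list names 1 transcript per peak, whereas these distances use the whole RefSeq gene. Of 29 peaks in 3' UTRs with a known strand, 10 lay within 1000 nt of the gene end and 2, in RNF6 and TRIM65, lay nearer the start of the gene, at 10.5% and 38.0% of its span. In all, 10 family peaks also overlapped another RefSeq gene.

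Over all classes, family peaks were most frequent towards the 3′ end of the gene, while intronic ones were more evenly spread. Each gene was divided into 5 equal bins from its start. Strand was known for 208 peaks inside their gene, and 76 of these, 36.5% (30.3 to 43.3%), lay in the last bin, against 30.5% (29.2 to 31.7%) of 5419 other coding peaks. In the second bin lay 11.1% (7.48 to 16.1%), against 17.5% (16.5 to 18.5%). Among intronic peaks the third bin was the fullest, with 24.8% (18.3 to 32.7%) of family peaks against 18.9% (17.7 to 20.3%) of others. The last bin held 24.1% (17.7 to 31.9%) of the 137 intronic family peaks, against 16.7% (15.5 to 18.0%) of the 3405 others. The median position of intronic peaks was 0.564 of the span in the family and 0.467 elsewhere. Peaks of a gene share their gene, and intron lengths were not at hand, so these shares are a description.

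**Figure D4:**
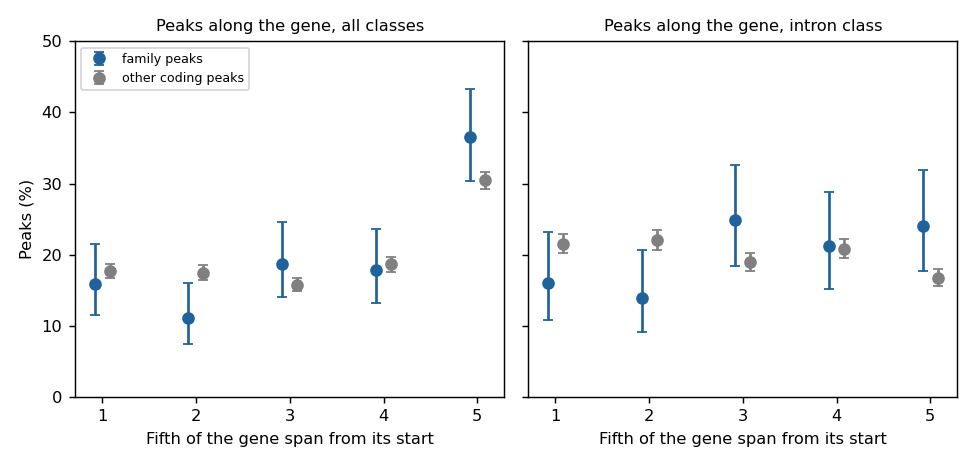
Share of peaks (vertical axis, %) in each of 5 equal bins of the RefSeq gene span (horizontal axis, 1 = start of the gene), for all classes on the left and for the intron class on the right, with family peaks in blue, other coding peaks in grey and Wilson 95% intervals as bars. The last bin holds 36.5% of all family peaks. Among intronic ones the third bin holds 24.8% and the last 24.1%.

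Peaks of the same gene were sometimes close together. Of 240 peaks inside their gene, 22, or 9.17% (6.13 to 13.5%), had another peak of the gene within 1000 nt, against 7.81% (7.17 to 8.49%) of other coding peaks. They form 12 neighbouring pairs in 10 genes, of which 4 pairs touch, in HERC2, UBE2E1, UBE2E3 and USP14. The pair in TRIM33 is 270 nt apart, that in USP16 255 nt and that in USP9X 605 nt. Within 1000 nt of a gene end lay 9.58% (6.47 to 14.0%), against 10.97% of other coding peaks.

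Family peaks were about as wide as others. The median was 25 nt for the family (quartiles 21 and 33 nt) and 24 nt for other coding genes (20 and 31 nt). The median of intronic peaks was 25 nt in the family and 23 nt elsewhere. At 50 nt or more were 9 family peaks, 3.70% (1.96 to 6.89%), against 3.78%. The widest were those of BIRC5 and USP9X with 70 nt each and that of FBXO31 with 66 nt, while the widest peak of other coding genes had 424 nt.

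The rest of the ubiquitin pathway, from 6 lists of genes outside the naming rule, gave like values. Of 196 genes, 79 held a peak, 1.64 times the number from their spans. Their share was 40.3% (33.7 to 47.3%), against 21.6% of all protein-coding genes. RING and related ligases had 31 of 58, 1.80 times the number from their spans. Among them, MYCBP2 had 6 peaks, MIB1 5 and XIAP, the inhibitor of caspases, 5, of which 4 lay in its 3' UTR. Adaptors and regulators of cullin ligases had 23 of 63, 1.65 times the number from their spans. Among them were COP1 with 4 intronic peaks, ANAPC5 with 3, and ANAPC10 and ANAPC16 with 2 each. HECT ligases outside the rule had 5 of 12, led by WWP2 with 2, followed by AREL1, HACE1 and ITCH with 1. This was 1.07 times the number from their spans. Other deubiquitinases had 9 of 28, 32.1% (17.9 to 50.7%), an interval that includes the 23.8% from their spans. MYSM1, which acts on histone H2A, had 6 peaks, 4 of them in the 3' UTR, UCHL5 had 2, and MINDY3 and OTULIN 1 each. Proteasome subunits had 11 of 33, 1.82 times the number from their spans, with 2 intronic peaks each in PSMB5 and SEM1 and 1 each in PSMA4 and PSMB2. PSMD14 stands in both of the last lists and was counted once in the total.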

How the data were processed

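PAR-CLIP was done on HEK293T cells, with 3 SMD2 immunoprecipitated libraries and 1 input library, grouped by title. The authors deposited 1 list of peaks, with start and end positions in bases of hg38 and a transcript, gene and class per peak. Starts were taken to count from 0, as no entry has equal start and end, and are printed from 1. Per the submitters' processing notes, Trim Galore 0.6.10, Bowtie2 2.5.1 and hg38 were used. How peaks were called (program, threshold, input, pooling) and annotated is not given in the sources used here, and depth is unknown.

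Symbols were matched to RefSeq genes (GRCh38.p14) on the same chromosome, or by a synonym within 10000 nt. All 243 family peaks matched by symbol, and 1.64% of 6886 protein-coding peaks did not match. Strand came from the RefSeq promoter table and was missing for 18 of the 149 genes. Expected numbers are sums of the shares of other genes in the same of 10 span groups. Functions were tested on simulated data. Work was done in Python 3.11.15 with scipy 1.17.1, pandas 2.3.3, numpy 2.4.6 and, for figures, matplotlib 3.10.9.

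Members, role groups and lists were chosen with earlier results of these data known. Named are genes with 3 or more peaks, up to 4 per group, the 3 widest peaks, pairs within 1000 nt and the peak with a sequence. For E1, E2, HECT and cullin genes, further names, and those given for a position or label, were chosen after their values were seen. Some genes of the family are not reported by name here.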

Additional observations from a re-analysis of the deposited data

How the results depend on the processing

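No paired analysis was possible because the list has no value per library, and no replicate could be left out for the same reason. Of 60 values of the main results under an alternative, 51 stayed within the 95% interval of the reported value. Under the criterion of 2 peaks the family share was 12.7% and that of other genes 7.19%. The share of other genes was 20.7% without peaks of 50 nt or wider, 22.2% with intergenic peaks, 22.0% without placeholder names and 23.2% with span groups weighted as in the family. With the widest peak of each gene the median width was 29 nt. With 500 or 2000 nt as the distance, 5.83% or 16.2% of family peaks lay near a gene end. The ratio to the number from spans ranged from 1.47 (intergenic peaks counted) to 1.54. Without wide peaks, USP9X had 3 in place of 5. Unknown depth limits every absence of a peak.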

Other observations

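The list held 10 further peaks with a name of the family that fell outside the choice of members. Of these, 3 were intergenic peaks assigned to protein-coding genes, 1 of them to KLHL6. Another 4 were assigned to processed pseudogenes: 3 to UBE2V1P13, a copy of the E2 variant gene UBE2V1, and 1 to TRIM60P9Y. The transcribed pseudogene UBE2Q2P2 held 1 exonic peak, and 2 peaks lay in the antisense RNAs TRIM52-AS1 and USP3-AS1.

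Among the family genes without a peak, the longest were FBXL7 with 440 kb, KLHL1 with 408 kb and OTUD7A with 395 kb. Their RNA levels in HEK293T are not in the list.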
